A study of Mus musculus with 4 samples.

Results

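The mouse genes named Zfp with a number encode zinc finger proteins, most of them with the C2H2 finger, in which a pair of cysteines and a pair of histidines hold a zinc ion. The table held 357 rows named in this way, Zfp36 left aside, and 288 of them stood at 1 TPM (a transcript's share of the library, corrected for its length and scaled to a fixed total) or more in at least 2 of the 4 libraries. These 288 genes, out of 24497 gene rows and 11452 genes tested, are described here. They were chosen by their TPM alone, and of the other 69 rows 20 were listed at 0 in every library.

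RNA sequencing was done on cultured mouse acute myeloid leukaemia cells called NRAS/AE9a, with 2 libraries labelled Tet2 KO and 2 labelled WT. The Tet2 KO cells came from bone marrow haematopoietic stem cells of Tet2-/- mice, whose Tet2 lacks exon 3, and the WT cells from those of wild-type mice. Both groups carried the NRAS and AE9a oncogenes, AE9a being a short form of the AML1-ETO fusion, and both grew in RPMI with the cytokines SCF (50 ng/ml), IL-3 and IL-6 (10 ng/ml each) under selection with G418 (1 mg/ml) and puromycin (2 µg/ml). No label ties the libraries of a group to different cultures or animals, so the p-values reflect how far these libraries differ, and that difference may be technical.

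Tet2 encodes a dioxygenase that oxidises methylated cytosine. Its gene-level value was 16.98 and 16.95 TPM in Tet2 KO and 16.62 and 16.98 TPM in WT, which gave a log2 difference of 0.013 (SE 0.068 and limma adjusted p = 0.868). A gene-level TPM does not separate the deleted exon from the others, so this value does not check the deletion, and the groups below are those of the labels. The 8 myeloid and blood cell markers looked up (Ptprc, Spi1, Cebpa, Mpo, Itgam, Csf3r, Kit and Cd33) stood between 11.63 and 385.46 TPM. Kit, a receptor of progenitor cells, was at 201.19 and 209.41 TPM in Tet2 KO and 11.63 and 11.99 TPM in WT, while Itgam, a marker of mature myeloid cells, was at 220.71 and 227.39 TPM in Tet2 KO and 380.06 and 385.46 TPM in WT. Of the 8 markers, 6 were called higher in Tet2 KO (limma adjusted p under 0.05) and 2 lower, beside 54.4% and 19.5% of all genes tested. Ptprc, Cebpa, Mpo, Csf3r and Cd33 were higher along with Kit, and Spi1 was lower along with Itgam. Csf3r was at 30.44 and 33.27 TPM in Tet2 KO and 20.5 and 20.05 TPM in WT. The part of these markers in the zinc finger values was not tested. The 10 markers of B cells, T cells, epithelium, fibroblasts and endothelium reached at most 0.36 TPM, with Cd3e and Cd3g listed at 0 throughout. In bulk RNA, fewer cells of a type and less RNA per cell cannot be told apart.

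In a C2H2 protein the fingers stand in a row, and each contacts a few bases of DNA. Many of these proteins begin with a KRAB box, which binds TRIM28. TRIM28 in turn brings the histone methyltransferase SETDB1 and HP1 proteins, and the complex is known for silencing endogenous retroviruses and other transposons. KRAB zinc finger genes lie in large clusters that grew by repeated duplication, and mouse and human hold many that the other lacks.

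The coding sequence of the first finger of 4 members, read from the annotated transcripts on mm10, shows the repeat that the family is named for. Capitals mark the codons of the cysteine pair and the histidine pair. The search allowed 2 to 4 residues between the cysteines, 12 between the second cysteine and the first histidine, and 3 to 5 between the histidines. Zfp658 fell most in Tet2 KO, Zfp760 and Zfp329 were among the largest rises, and Zfp146 led the largest cluster in which every member was called higher.
Zfp658 (chr7:43573209-43573271, plus strand): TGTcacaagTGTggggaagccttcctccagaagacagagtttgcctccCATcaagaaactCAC
Zfp760 (chr17:21722473-21722535, plus strand): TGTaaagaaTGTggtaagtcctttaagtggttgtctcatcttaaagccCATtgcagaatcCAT
Zfp146 (chr7:30162502-30162564, minus strand): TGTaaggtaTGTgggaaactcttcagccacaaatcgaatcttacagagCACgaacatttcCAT
Zfp329 (chr7:12810978-12811040, minus strand): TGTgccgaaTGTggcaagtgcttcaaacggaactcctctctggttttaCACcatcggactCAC

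Zfp658 held 21 such motifs, Zfp760 16, Zfp329 12 and Zfp146 10. Across the 286 members with an annotated protein the median was 10 and the highest 36. A profile of the KRAB box was built from 89 distinct sequence windows in the proteins of all rows named Zfp with a number. It was found in 173 of the 286 members and not in the other 113. Zfp783 and Zfp939 are annotated without a protein.

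Most members had a higher share of the transcripts in Tet2 KO. Their TPM summed to 3686 and 3650 in the Tet2 KO libraries and 2484 and 2586 in the WT libraries, and the median member stood at 8.32 and 7.92 TPM in Tet2 KO and 5.65 and 5.92 TPM in WT. The sums of the Tet2 KO libraries lay above those of both WT libraries, and the libraries of each group were close to each other. In the fit across all tested genes, 205 of the 288 members (71.2%) were called higher in Tet2 KO (limma adjusted p under 0.05), beside 54.4% of all genes tested. Only 6 members (2.08%) were called lower, beside 19.5% of all genes, and 77 were not called. The count of 6 is 3 without WT replicate 2. The median log2 fold change of the members, on the log2(TPM + 1) scale, was 0.45, against 0.23 for all genes. Because the median gene itself rose on the deposited scale, the members are also given relative to that median below.

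The shift was broad and mostly under 2-fold. Both Tet2 KO libraries stood above both WT libraries in 241 members (83.7%, beside 62.4% of all genes tested) and below both in 14 (4.86%, beside 24.4%). A rise of at least 1 on the log2 scale was called in 16 members (5.56%, beside 6.1% of all genes), and a fall of that size in none of them by limma, beside 2.8%, the largest fall of any member being -0.65. For rises of that size the members thus stood near the background, and for falls of that size below it. The 16 include Zfp979, Zfp467, Zfp521 and Zfp760, which passed the expression filter through the Tet2 KO libraries alone, so their direction was fixed by it. All genes tested went through the same filter. Leaving out each library in turn kept 161 members called higher in all 4 reduced fits (55.9%, beside 44.3% of all genes) and kept 2 called lower (0.694%, beside 14.8%), which were Zfp658 and Zfp710.

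**Figure D1:**
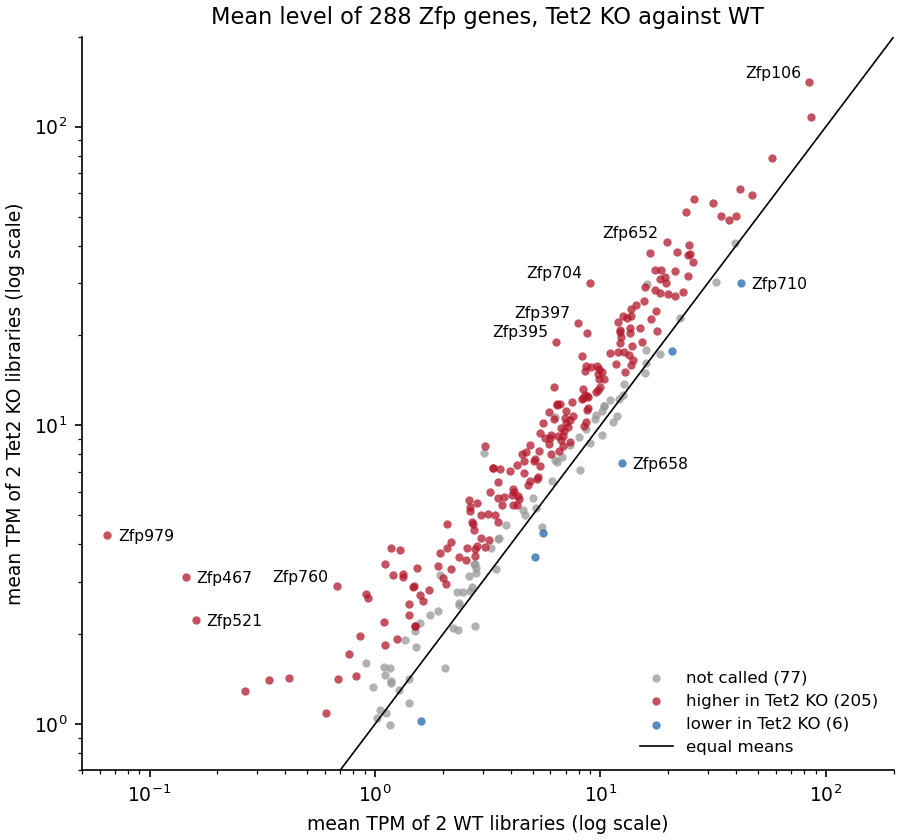
Mean TPM of each of the 288 Zfp genes in Tet2 KO (vertical, log scale) against WT (horizontal, log scale), coloured by call, with the line of equality. The 205 genes called higher lie above the line along the whole range, and the 6 called lower sit close under it.

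How a member passed the expression filter bears on these counts. Of the 288 members, 266 stood at 1 TPM or more in all 4 libraries. Of these 190 were called higher (71.4%) and 5 lower (1.88%), with a median of 0.45. All genes tested had 54.4% and 19.5%, and were not counted apart by this stricter filter. Another 14 passed through the Tet2 KO libraries alone and none through the WT libraries alone. Those 14 had to be higher in Tet2 KO, and 13 of them were called so. At the edge of the filter, Zfp112 was at 1.18 and 1.00 TPM in Tet2 KO and 0.57 and 0.64 TPM in WT. Zfp580 was at 1.01 and 2.19 TPM in Tet2 KO and 0.87 and 0.95 TPM in WT, and Zfp114 at 1.16 and 1.07 TPM in Tet2 KO and 1.03 and 1.07 TPM in WT. Just outside it, Zfp105 was at 1.40 and 0.98 TPM in Tet2 KO and 0.50 and 0.52 TPM in WT. Zfp711 was at 0.96 and 1.07 TPM in Tet2 KO and 0.03 and 0.12 TPM in WT, and Zfp987 at 1.31 and 0.96 TPM in Tet2 KO and 0 and 0.05 TPM in WT.

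The counts depended on how the libraries were scaled. With each library divided by its median ratio to the other libraries, which set the median of all genes to 0.0023, 145 members (50.3%) were called higher and 20 (6.94%) lower, beside 33.3% and 34.4% of all genes. The member median was then 0.25. All 145 were also called higher on the deposited scale, and no member called higher there became a called fall. Scaled to the ERCC spike-in RNAs, which took 5.48 and 5.33% of the Tet2 KO libraries and 4.38 and 4.43% of the WT libraries, 130 members were higher and 24 lower (45.1% and 8.33%, beside 29.6% and 37.8% of all genes). Quantile normalisation gave 124 higher and 25 lower (43.1% and 8.68%, beside 34.2% and 32.7%). With transcript length and GC content corrected on top of median-ratio scaling, 133 were higher and 28 lower (46.2% and 9.72%, beside 34% and 35.4%). Under all 5 scalings 102 members (35.4%) were called higher, beside 25.2% of all genes, and 5 (1.74%) lower, beside 18.7%.

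**Figure D2:**
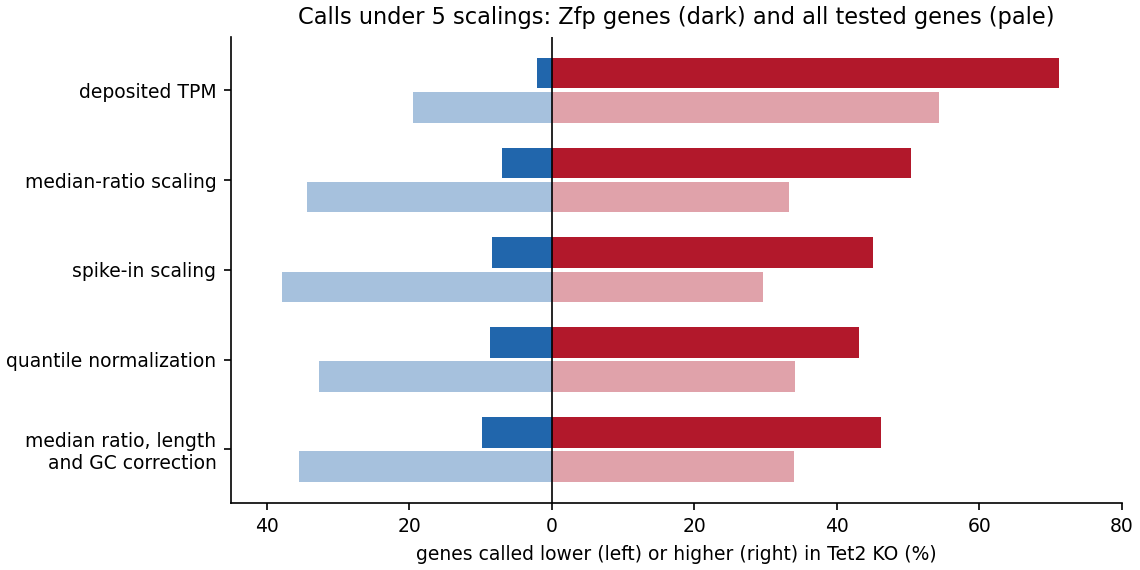
Percentage of genes called lower (left) and higher (right) in Tet2 KO under 5 scalings, for the Zfp members (dark) and all tested genes (pale). The members keep more rises and fewer falls than all tested genes under each scaling, 71.2% against 54.4% higher on the deposited scale and 50.3% against 33.3% after median-ratio scaling.

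The largest rise was that of Zfp979 on chromosome 4, at 5.55 and 3.06 TPM in Tet2 KO and 0.05 and 0.08 TPM in WT. The change was 2.28 on the log2 scale (SE 0.21), and 24.6% of its 50-base stretches occur in other genes, so reads may have been divided between copies. Zfp467, known in mouse marrow stromal cells for turning them towards fat, was at 3.36 and 2.87 TPM in Tet2 KO and 0.29 and 0 TPM in WT, a change of 1.85 on the log2 scale (SE 0.15).

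Zfp704 on chromosome 3 gave the largest rise among genes well above the filter. It stood at 29.37 and 30.76 TPM in Tet2 KO and 8.66 and 9.36 TPM in WT, a ratio of means of 3.34 and a change of 1.63 on the log2 scale (SE 0.072, limma adjusted p = 6.84e-12). Zfp395, whose human counterpart binds the promoter of the Huntington disease gene, was at 18.02 and 20.15 TPM in Tet2 KO and 6.16 and 6.59 TPM in WT, a change of 1.44 on the log2 scale (limma adjusted p = 2.16e-10). Zfp397 on chromosome 18 was at 22.41 and 21.74 TPM in Tet2 KO and 7.38 and 8.56 TPM in WT, a change of 1.37 on the log2 scale (limma adjusted p = 2.99e-10). In all 3 the groups did not overlap, and each Tet2 KO library was more than 2-fold above each WT library. Zfp521, a regulator of haematopoietic progenitors, was at 2.18 and 2.28 TPM in Tet2 KO and 0.15 and 0.17 TPM in WT, a change of 1.48 on the log2 scale (SE 0.13). The 8 largest rises ended with Zfp329, at 8.52 and 8.49 TPM in Tet2 KO and 2.65 and 3.53 TPM in WT (log2 fold change 1.22), and Zfp760, at 3.23 and 2.56 TPM in Tet2 KO and 0.62 and 0.73 TPM in WT (1.21). Zfp979, Zfp467, Zfp521 and Zfp760 are among the 14 members that passed the filter through the Tet2 KO libraries alone, so their rise was a condition of being counted and their values are a description, with no test. Of the other members that rose by at least 1 on the log2 scale, Zfp422 (59.64 and 54.96 TPM in Tet2 KO, 24.56 and 27.19 TPM in WT) and Zfp740 (50.02 and 53.40 TPM in Tet2 KO, 23.78 and 23.98 TPM in WT) were the most abundant and were picked out after their values were seen.

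The 6 falls were smaller than these rises. Zfp658, whose human counterpart takes part in the response to zinc, was at 7.38 and 7.61 TPM in Tet2 KO and 11.36 and 13.47 TPM in WT, a change of -0.65 on the log2 scale (SE 0.091, limma adjusted p = 7.03e-06). Zfp710 was at 28.81 and 31.31 TPM in Tet2 KO and 41.79 and 41.90 TPM in WT, a change of -0.47 on the log2 scale (SE 0.061, limma adjusted p = 3.46e-06). In both genes each Tet2 KO library lay below each WT library, and after median-ratio scaling the changes were -0.88 and -0.70. The other falls lost their calls when single libraries were left out, and some under other settings too. Zfp90 (-0.42, limma adjusted p = 0.00439) had an adjusted p of 0.0635 without Tet2 KO replicate 1, and 72.6% of its exon bases overlap an annotated antisense gene. Zfp948 (-0.29, limma adjusted p = 0.0262) had 0.235 without Tet2 KO replicate 2, 0.171 without WT replicate 2 and 0.0838 with no filter on low values. Zfp637 (-0.21, limma adjusted p = 0.0494) had 0.261 without Tet2 KO replicate 2 and 0.503 without WT replicate 2, and it was also not called with a pseudocount of 0.1 or 5 TPM, with no filter, without trend, without robust estimation or with length and GC corrected (0.0514 to 0.135). Zfp287 (-0.37, limma adjusted p = 0.015), the sixth, lay outside the naming rule at 1.10 and 0.94 TPM in Tet2 KO and 1.62 and 1.59 TPM in WT, and its adjusted p was 0.0682, 0.0762 and 0.0631 without Tet2 KO replicate 2, WT replicate 1 and WT replicate 2.

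Promoter sequence is shown for the members at both ends of the range that the RefSeq table (GRCm38.p6) holds, with capitals on every CpG, the dinucleotide that TET2 acts on when it is methylated. Each runs from 250 bases before the start of the gene to 50 after it.
Zfp979 (chr4:147642459-147642758, minus strand): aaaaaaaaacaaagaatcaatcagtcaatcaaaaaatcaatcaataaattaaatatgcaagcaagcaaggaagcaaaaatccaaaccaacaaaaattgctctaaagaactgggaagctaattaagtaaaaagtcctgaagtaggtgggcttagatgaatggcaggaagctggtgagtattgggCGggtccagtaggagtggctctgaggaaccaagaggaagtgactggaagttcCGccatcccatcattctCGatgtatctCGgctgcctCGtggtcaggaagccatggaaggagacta
Zfp467 (chr6:48445041-48445340, minus strand): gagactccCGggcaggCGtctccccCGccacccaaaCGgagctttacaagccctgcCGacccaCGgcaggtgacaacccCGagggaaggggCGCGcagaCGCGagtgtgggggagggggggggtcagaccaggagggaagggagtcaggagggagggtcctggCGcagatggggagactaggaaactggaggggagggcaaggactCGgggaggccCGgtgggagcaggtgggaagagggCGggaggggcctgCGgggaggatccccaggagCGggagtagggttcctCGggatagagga
Zfp658 (chr7:43562120-43562419, plus strand): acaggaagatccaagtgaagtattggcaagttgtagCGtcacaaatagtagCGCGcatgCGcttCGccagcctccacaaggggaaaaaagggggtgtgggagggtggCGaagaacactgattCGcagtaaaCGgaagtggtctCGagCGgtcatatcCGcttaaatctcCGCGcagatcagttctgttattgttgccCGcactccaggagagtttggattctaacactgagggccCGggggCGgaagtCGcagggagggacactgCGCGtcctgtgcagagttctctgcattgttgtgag
Zfp710 (chr7:80024564-80024863, plus strand): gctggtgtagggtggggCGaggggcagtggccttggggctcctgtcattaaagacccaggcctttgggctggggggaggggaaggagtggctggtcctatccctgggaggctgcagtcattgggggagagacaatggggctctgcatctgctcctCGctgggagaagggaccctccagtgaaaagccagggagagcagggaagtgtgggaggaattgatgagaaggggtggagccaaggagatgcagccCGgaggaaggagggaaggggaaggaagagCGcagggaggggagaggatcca

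The 4 promoters are examples. Zfp979 held 5 CpG and Zfp467 18, while Zfp710 held 4 and Zfp658 19. Over the 296 promoters of the 240 members in the table the median was 15 CpG, against 20 for 11311 promoters of tested genes and 7 for all 32851 promoters. It was 16 for members called higher on both the deposited and the median-ratio scale and 13 for members lower or not called, a difference that was not tested. The letters TGTGGT, the core bound by the RUNX1 part of AML1-ETO, were searched on both strands and are in none of the 4. They occurred in 16.2% of the members' promoters, 13.2% of those of tested genes and 16.8% of all promoters, with 14.1% for members higher on both scales and 21.8% for members lower or not called. No methylation or binding data were analysed here.

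The members differ widely in level. Mean TPM ran between 0.78 and 113, with a median of 6.98, against 21.2 for all genes tested. The most abundant were Zfp106, Zfp207, Zfp91, Zfp330 and Zfp217, which were all called higher. Zfp330, a nucleolar protein, was at 58.65 and 59.49 TPM in Tet2 KO and 46.57 and 47.92 TPM in WT (log2 fold change 0.32, limma adjusted p = 6.03e-05), and 0.075 after median-ratio scaling, where it was not called.

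The share of members called higher was smallest between 1 and 2 TPM and largest above 20 TPM, leaving aside 4 members with a mean under 1 TPM, which passed the filter through the Tet2 KO libraries alone. Between 1 and 2 TPM it was 44.4% of 36, beside 42% of all genes of that range, and between 2 and 5 TPM 65.3% of 75, beside 50.7%. Members between 1 and 2 TPM thus stood near the background. Of the 14 members that passed through the Tet2 KO libraries alone, those not left aside are counted in these ranges. Zfp521, Zfp467 and Zfp760 are among those between 1 and 2 TPM. The 14 had a median level of 1.22 TPM and 13 of them were called higher. The share between 1 and 2 TPM is thus partly fixed by the filter. All genes of each range went through the same filter. The share was 77.1% of 70 between 5 and 10 TPM, beside 55.6%, and 75.4% of 65 between 10 and 20 TPM, beside 59.8%. Above 20 TPM it was 86.8% of 38, beside 54.4%. The median log2 fold change of the members over these ranges, low to high, was 0.30, 0.44, 0.46, 0.47 and 0.57, and that of all genes in the highest was 0.18. Above 20 TPM and after median-ratio scaling, members had a median of 0.33 and all genes one of -0.062. Across the 288 members Spearman's rho of log2 fold change with mean TPM was 0.139, and across all tested genes it was -0.129. Both are descriptions over genes that share the same 4 libraries, and a low gene also has a larger error and a change understated by the pseudocount of 1 TPM.

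**Figure D3:**
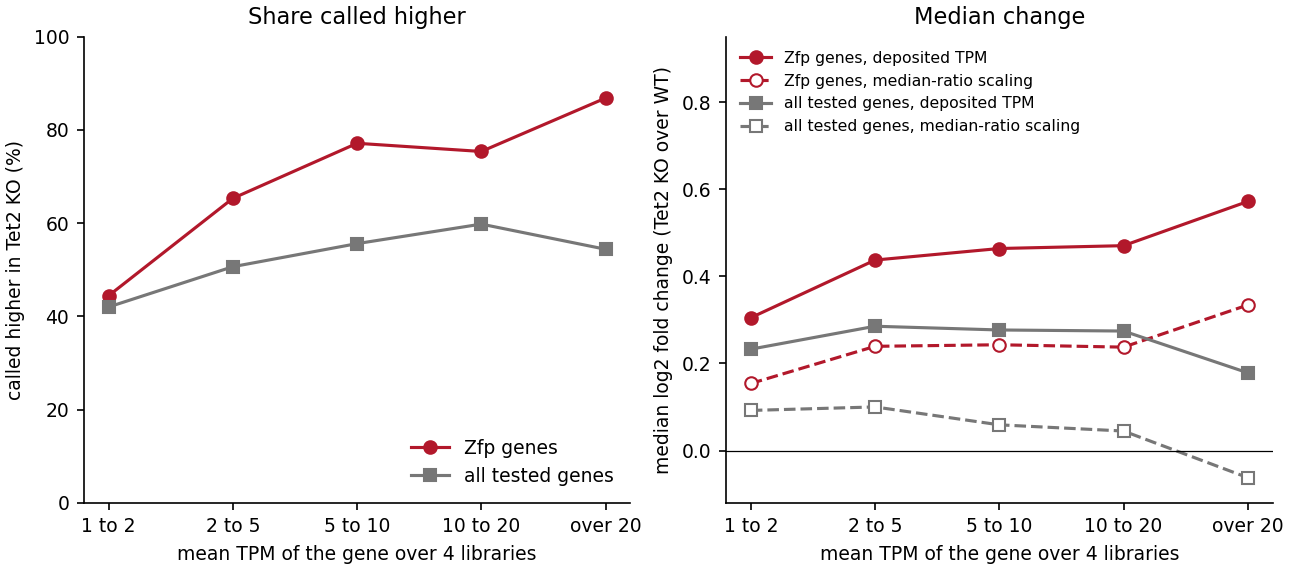
Percentage called higher (left) and median log2 fold change, Tet2 KO over WT (right), by range of mean TPM, for Zfp members (red circles) and all tested genes (grey squares), on the deposited scale (solid) and after median-ratio scaling (dashed). On the deposited scale the members run between 44.4% and 86.8% called higher, close to all genes at 1 to 2 TPM and farthest above them over 20 TPM. Members that passed the filter through the Tet2 KO libraries alone are included, so the share at 1 to 2 TPM is partly fixed by the filter.

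Members had longer and less GC-rich transcripts than other genes, with a median of 3299 bases against 2848 and 44.7% GC against 50.2% for all genes tested. Over all genes log2 fold change followed length with a rho of 0.301 and GC with -0.145, and over the members 0.176 and -0.064. Their part in the member counts was tested by the correction alone. With both corrected, on top of median-ratio scaling, the member median was 0.19 and that of all genes -0.00092.

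Among members that act on RNA and ribosomes, 5 of the 8 listed were called higher (62.5%, near the 54.4% of all genes) and none lower. Zfp106, an RNA-binding protein needed by motor neurons in mice, was the most abundant of all members, at 137.71 and 144.66 TPM in Tet2 KO and 83.10 and 85.85 TPM in WT. It rose by 0.73 on the log2 scale (SE 0.048, limma adjusted p = 1.03e-09). Zfp598, whose human counterpart is the ubiquitin ligase that marks collided ribosomes, was at 35.93 and 40.20 TPM in Tet2 KO and 22.08 and 21.67 TPM in WT (log2 fold change 0.77, SE 0.066, limma adjusted p = 2.42e-08). Zfp622, a factor of large ribosomal subunit maturation, was at 50.07 and 50.24 TPM in Tet2 KO and 34.04 and 34.35 TPM in WT (0.54, SE 0.056, limma adjusted p = 2.27e-07). In these 3 the groups were well apart and the calls held under every alternative.

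The rest of the RNA group changed less. Zfp318 (0.21, limma adjusted p = 0.0151) had -0.015 after median-ratio scaling and was called lower with length and GC corrected (-0.35, limma adjusted p = 0.000686). On the deposited scale it lost its call without Tet2 KO replicate 2, WT replicate 1 or WT replicate 2 (0.0558, 0.0873 and 0.0737). Zfp346, a protein that binds double-stranded RNA, had 0.23 (limma adjusted p = 0.0289, and -0.033 on the spike-in scale) and lost its call without Tet2 KO replicate 2 or WT replicate 2 (0.209 and 0.215). Zfp326 (-0.13), a splicing factor, Zfp593 (-0.11) and Zfp830 (0.016) were not called, and each was called lower after median-ratio scaling (-0.35, -0.34 and -0.21). So the group of 8 had 3 rises and 3 falls on that scale, near the 33.3% and 34.4% of all genes. Its median there was -0.0017, against 0.22 on the deposited scale.

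All 8 tested members of the list of chromatin cofactors and mitotic factors were called higher on the deposited scale, beside 54.4% of all genes, with a median log2 fold change of 0.51. The median was 0.27 after median-ratio scaling and 0.19 with length and GC corrected. Zfp652, whose human counterpart binds CBFA2T3, a relative of ETO, was at 39.00 and 43.22 TPM in Tet2 KO and 20.06 and 19.44 TPM in WT. It rose by 1.02 (SE 0.065, limma adjusted p = 7.22e-10) and by 0.78 after median-ratio scaling. Zfp217, a partner of the CoREST and LSD1 corepressors, was at 60.57 and 63.31 TPM in Tet2 KO and 39.82 and 43.06 TPM in WT (0.57, SE 0.058, limma adjusted p = 2.07e-07). Zfp592 and Zfp687, which in human cells share a complex with ZMYND8, rose by 0.70 and 0.61. Zfp592 was at 24.63 and 27.46 TPM in Tet2 KO and 15.69 and 15.60 TPM in WT.

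The smaller changes of this list were those of Zfp638, Zfp644, Zfp451 and Zfp207. Zfp638, known for silencing unintegrated retroviral DNA, rose by 0.45, Zfp644, which guides the G9a methyltransferase, by 0.41, and Zfp451, a SUMO ligase, by 0.33, while with length and GC corrected Zfp638 and Zfp644 had -0.044 and -0.054 and Zfp451 0.043, with no call (limma adjusted p = 0.371, 0.431 and 0.580). Zfp207, a spindle and kinetochore protein that binds BUB3, was at 109.53 and 106.32 TPM in Tet2 KO and 84.99 and 86.99 TPM in WT (0.32, SE 0.048, limma adjusted p = 1.45e-05). It and Zfp451 were not called after median-ratio scaling (0.081 and 0.10), and the other 6 were called higher, beside 33.3% of all genes. Zfp711, Zfp827 and Zfp462 were below the filter, Zfp462 at 0 in every library.

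**Figure D4:**
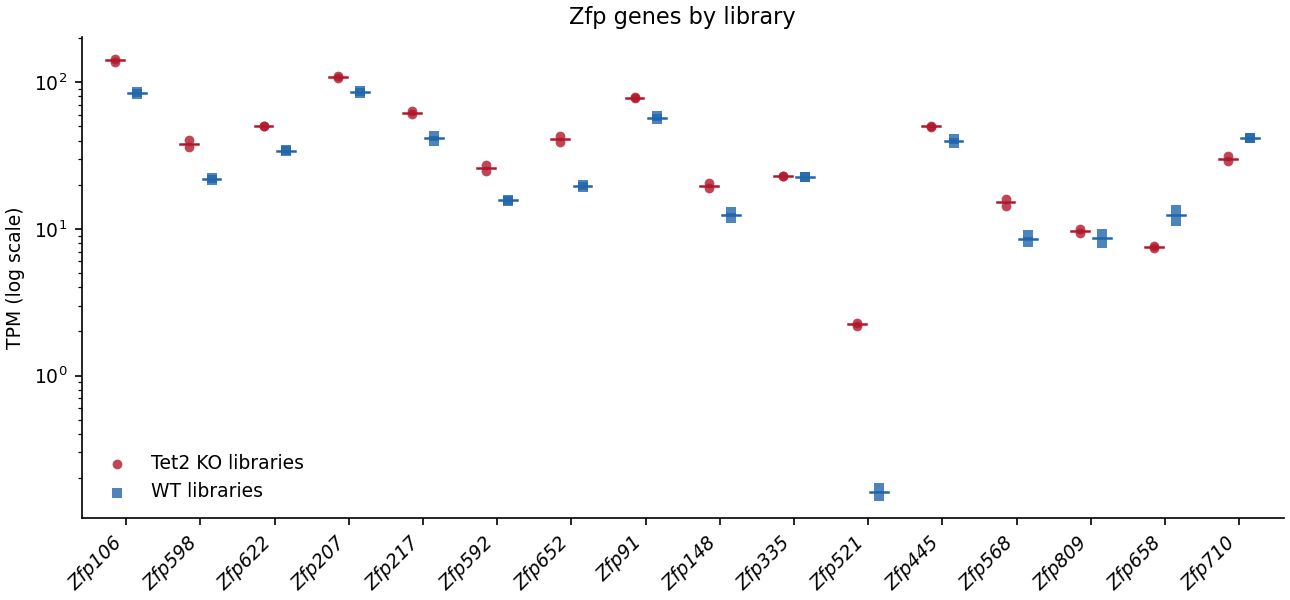
TPM (log scale) of 16 Zfp genes in each library, Tet2 KO (circles, left of each pair) and WT (squares, right), with bars at the group means. Zfp106, Zfp598, Zfp652 and Zfp568 stand apart by group, Zfp335 and Zfp809 lie nearly level, and Zfp658 and Zfp710 are lower in Tet2 KO.

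Among promoter-binding and signalling factors 7 of the 10 tested were called higher (70.0%, beside 54.4% of all genes) and none lower. Their median was 0.41, and it was 0.17 after median-ratio scaling and 0.034 with length and GC corrected. Beside Zfp521, described above, Zfp219 rose by 0.68 and Zfp110, a partner of the neurotrophin receptor, by 0.59. Zfp148, which binds GC-rich promoters, was at 20.44 and 19 TPM in Tet2 KO and 11.80 and 12.96 TPM in WT (0.63, SE 0.076, limma adjusted p = 1.33e-06), but with length and GC corrected it had 0.032 and no call (limma adjusted p = 0.596). Zfp91, a ubiquitin ligase of noncanonical NF-kB signalling, was at 79.46 and 77.72 TPM in Tet2 KO and 56.28 and 58.52 TPM in WT (0.45, SE 0.052, limma adjusted p = 1.01e-06), and with length and GC corrected 0.036 and no call (limma adjusted p = 0.419). Zfp384, whose human gene forms fusions in B cell leukaemia, rose by 0.37 and was not called on the spike-in scale (0.083, limma adjusted p = 0.280). Zfp143, a promoter factor found at chromatin loops, had 0.20 (limma adjusted p = 0.0114) with -0.032 after median-ratio scaling, and its adjusted p was 0.055 without WT replicate 1 and 0.0919 without WT replicate 2.

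Not every factor of this list moved. Zfp335, part of histone H3 methyltransferase complexes, was at 22.91 and 22.91 TPM in Tet2 KO and 22.51 and 22.48 TPM in WT. The difference was 0.025 (SE 0.063, limma adjusted p = 0.727), and after median-ratio scaling it was called lower (-0.21, limma adjusted p = 0.00728). Zfp281 (0.10, limma adjusted p = 0.238) and Zfp703 (0.13, limma adjusted p = 0.193) were not called and had the opposite sign after median-ratio scaling (-0.13 and -0.10). Zfp42 and Zfp423, an embryonic stem cell marker and an adipocyte factor, were listed at 0 in all libraries.

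Of 7 KRAB proteins with known targets, 4 were called higher (57.1%, near the 54.4% of all genes) and none lower. Their median was 0.32, and it was 0.15 after median-ratio scaling and 0.082 with length and GC corrected. Zfp568, which represses a placental transcript of Igf2 in mice, was at 14.29 and 16.01 TPM in Tet2 KO and 8.11 and 9.04 TPM in WT (0.75, SE 0.086, limma adjusted p = 7.35e-07). Zfp932 rose by 0.66, with 55.5% of its 50-base stretches shared with other genes, and Zfp266 by 0.61, which was 0.11 and not called with length and GC corrected (limma adjusted p = 0.163). Zfp445, which maintains imprints, was at 50.51 and 49.76 TPM in Tet2 KO and 38.79 and 41.07 TPM in WT (0.32, SE 0.057, limma adjusted p = 8.57e-05), with 0.081 and no call after median-ratio scaling and a called fall of -0.15 with length and GC corrected. Its partner in imprinting, Zfp57, was at 2.99 and 3.67 TPM in Tet2 KO and 2.67 and 2.93 TPM in WT and was not called (0.18, limma adjusted p = 0.162, and -0.00061 after median-ratio scaling). Zfp809, which silences murine leukaemia virus, was not called either, at 9.35 and 10.03 TPM in Tet2 KO and 8.0 and 9.23 TPM in WT (0.16, limma adjusted p = 0.131, and -0.067 after median-ratio scaling). Zfp708 (0.29, limma adjusted p = 0.0671) shares all of its 50-base stretches with other genes.

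KRAB members were less abundant than the others and had more fingers. The 173 members with a KRAB box had a median level of 4.84 TPM and a median of 12 motifs, and the 113 without one 12.7 TPM and 7 motifs. Called higher were 117 KRAB members (67.6%) and 87 of the others (77.0%), with medians of 0.44 and 0.47, and called lower were 4 and 2, beside 54.4% and 19.5% of all genes. After median-ratio scaling 78 KRAB members were higher and 8 lower, and 66 of the others were higher and 12 lower, beside 33.3% and 34.4% of all genes. Kept without each library in turn were the rises of 49.1% of KRAB members and 66.4% of the others, and also under all 5 scalings those of 29.5% and 44.2%, beside 44.3% and 25.2% of all genes. The differences between these shares were not tested, and level differs between the classes. By number of motifs, 32 of 45 members with 0 to 4 were called higher, 56 of 81 with 5 to 9, 67 of 98 with 10 to 14, and 49 of 62 with 15 or more. Spearman's rho of log2 fold change with motif number was 0.044 over 286 members.

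Proteins that work with the KRAB box were looked up as a list of 17 tested genes, of which 13 were called higher (76.5%, beside 54.4% of all genes) and none lower. Their median was 0.32 on the deposited scale, but 0.075 after median-ratio scaling and -0.0069 with length and GC corrected. Trim28 itself was at 149.69 and 158.83 TPM in Tet2 KO and 114.97 and 113.06 TPM in WT (0.43, SE 0.047, limma adjusted p = 4.24e-07). Setdb1 was at 34.22 and 37.15 TPM in Tet2 KO and 29.75 and 31.06 TPM in WT (0.22, SE 0.062, limma adjusted p = 0.00413), and at -0.016 with no call after median-ratio scaling. Fam208a, the TASOR subunit of the HUSH silencing complex, rose by 1.04, at 15.03 and 13.47 TPM in Tet2 KO and 6.16 and 6.63 TPM in WT. Another HUSH subunit, Mphosph8, was not called (-0.15, limma adjusted p = 0.0548) and was called lower after median-ratio scaling (-0.39), as was Uhrf1 (-0.033 and -0.27). On that scale 7 of the 17 were higher and 2 lower, beside 33.3% and 34.4% of all genes. Chd3 and Chd4, remodellers of the NuRD complex that TRIM28 recruits, rose by 0.98 and 0.67.

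Zinc finger genes under other names were counted in the same way. Of 36 tested Zbtb genes, which join fingers to a BTB domain, 31 were called higher (86.1%, beside 54.4% of all genes) and 2 lower. Their median was 0.58, and it was 0.36 after median-ratio scaling and 0.13 with length and GC corrected. After median-ratio scaling 22 were higher and 3 lower, beside 33.3% and 34.4% of all genes. Of the genes with a SCAN domain, 6 of 7 Zkscan genes (median 0.55) and 8 of 8 Zscan genes (median 0.57) were called higher. After median-ratio scaling 5 of each were called higher, beside 33.3% of all genes. With length and GC corrected their medians were 0.36 and 0.28. The numbers are small and no difference from the Zfp members was tested.

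Members lie mostly on a few chromosomes. Chromosome 7 carried 75, chromosome 17 36, chromosome 13 28 and chromosome 2 20. With neighbours joined when they lay within 500 kb, 167 members formed 27 clusters of 3 or more, and 10 of the clusters with 63 members were on chromosome 7. Called higher were 118 of the 167 clustered members (70.7%), with 2 lower and a median log2 fold change of 0.44. Of the 121 others 87 were called higher (71.9%), with 4 lower and a median of 0.45. All genes tested had 54.4% higher, 19.5% lower and a median of 0.23. On the deposited scale the shares of clustered and scattered members were close, while their median levels were 4.96 TPM and 10.8 TPM. After median-ratio scaling 77 of the 167 clustered members were higher and 7 lower, and 68 of the 121 others were higher and 13 lower, beside 33.3% and 34.4% of all genes. The call of a rise was kept without each library in turn in 50.3% of clustered and 63.6% of scattered members, and also under all 5 scalings in 31.7% and 40.5%, beside 44.3% and 25.2% of all genes. The differences between these shares were not tested.

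The median of every one of the 27 clusters was above 0, and 24 were above the median of all genes. After median-ratio scaling 24 cluster medians were above 0, and 23 with length and GC corrected as well. In 10 clusters every member was called higher, in 2 none was called, and 2 held a called fall. Over all genes tested, 54.4% were called higher and 19.5% lower. The cluster medians and tallies include members that passed the filter through the Tet2 KO libraries alone, whose direction was fixed by it. In 1 of the 10 clusters, at chr2:150114406-150485091, only 1 of 3 members stood at 1 TPM or more in all 4 libraries. Within a cluster the values spread widely, and the median cluster spanned 0.64 on the log2 scale between its lowest and its highest member.

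**Figure D5:**
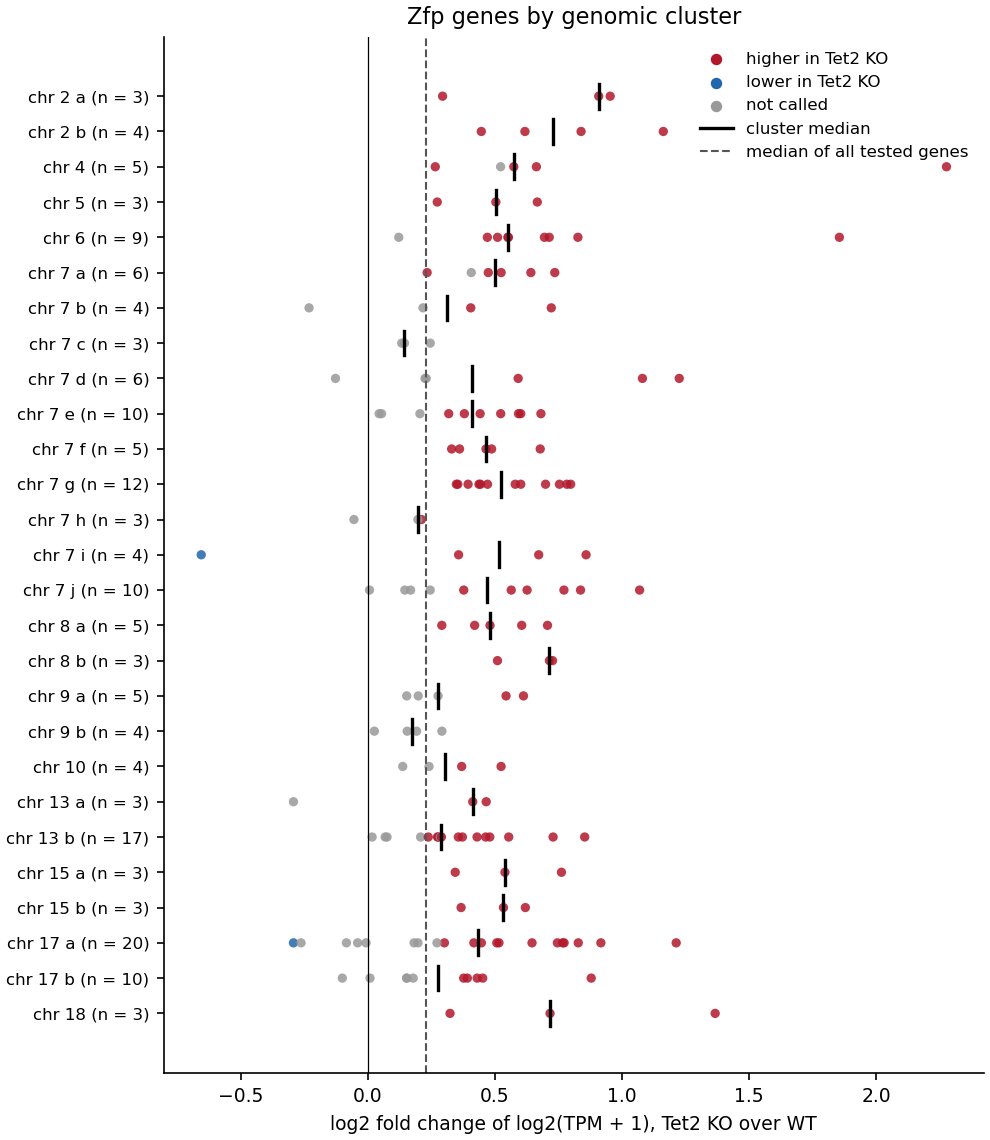
Log2 fold change, Tet2 KO over WT, of every member of the 27 genomic clusters (rows, by chromosome), coloured by call, with the cluster median as a black bar, a solid line at 0 and a dashed line at the median of all tested genes. All 27 medians lie right of 0, and most clusters hold members on both sides of the dashed line. Members that passed the filter through the Tet2 KO libraries alone are included.

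The largest cluster without exception lay at chr7:29768552-30169750 (mm10), where all 12 members were called higher, beside 54.4% of all genes. Their TPM summed to 145 and 148 in the Tet2 KO libraries and 82.8 and 93.2 in the WT libraries. The changes ran between 0.35 for Zfp27, at 5.29 and 6.27 TPM in Tet2 KO and 4.01 and 4.63 TPM in WT, and 0.80 for Zfp146, at 55.26 and 56.08 TPM in Tet2 KO and 29.99 and 33.28 TPM in WT. Zfp260 (0.78), Zfp568 (0.75) and Zfp382 (0.70) lay near the upper end. Without one library or another Zfp27, Zfp420, Zfp566 and Zfp82 lost their calls, and 8 of the 12 kept theirs in all 4 reduced fits, beside 44.3% of all genes. Zfp27 had 0.0976 without Tet2 KO replicate 2 and 0.101 without WT replicate 1, Zfp420 0.0771 and 0.138 without the same libraries, and Zfp566 and Zfp82 0.0599 and 0.0575 without Tet2 KO replicate 2. After median-ratio scaling 6 of the 12 were called higher and none lower, beside 33.3% and 34.4% of all genes. The median change was then 0.35, against 0.53 on the deposited scale.

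The cluster with the most members, 20 at chr17:21008903-23564238, was mixed. In it 12 of the 20 were called higher, near the 54.4% of all genes, and 1, Zfp948, lower, beside 19.5%. Zfp760, whose direction the filter fixed, stood at one end (1.21) and Zfp948 at the other (-0.29), while Zfp52, at 19.25 and 15.52 TPM in Tet2 KO and 17.32 and 19.51 TPM in WT, and Zfp53, at 8.55 and 8.96 TPM in Tet2 KO and 9.05 and 9.0 TPM in WT, were not called. The sums were 146 and 119 TPM in Tet2 KO and 94.3 and 102 TPM in WT. The Tet2 KO libraries differed within this cluster, with replicate 1 above replicate 2 in 18 of 20 members (90.0%). All 20 have a KRAB box, and the share was 60.7% of all KRAB members and 39.9% of all genes. Of the 12 rises, 8 were called without each library in turn, that is in 8 of 20 members, beside 44.3% of all genes. Zfp40 (0.211 and 0.325 without Tet2 KO replicate 1 and WT replicate 1), Zfp943 (0.142 and 0.0689 without the same), Zfp947 (0.0506 without Tet2 KO replicate 1) and Zfp758 (0.144 and 0.176 without WT replicate 1 and WT replicate 2) were not. Zfp948 was not called without Tet2 KO replicate 2 (0.235) or WT replicate 2 (0.171). After median-ratio scaling 9 of the 20 members were higher and 4 lower, beside 33.3% and 34.4% of all genes.

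At chr13:67038596-67827002, 12 of 17 members were called higher (70.6%, beside 54.4% of all genes) and none lower, at low levels with a median of 2.78 TPM. Zfp455 led with 3.35 and 3.02 TPM in Tet2 KO and 1.11 and 1.54 TPM in WT (0.85, SE 0.13, limma adjusted p = 1.42e-05), followed by Zfp748 (0.73). Zfp493, at 1.22 and 0.88 TPM in Tet2 KO and 1.09 and 0.95 TPM in WT, lay at the other end (0.017, limma adjusted p = 0.915, and -0.11 after median-ratio scaling). Only 5 of the 17 members were called higher without each library in turn, and 5 after median-ratio scaling. Both shares are below the 44.3% and 33.3% of all genes. Without Tet2 KO replicate 1 the calls of Zfp458, Zfp58, Zfp65, Zfp738 and Zfp953 were lost, without Tet2 KO replicate 2 those of Zfp456 and Zfp953, without WT replicate 1 those of Zfp456, Zfp58, Zfp65, Zfp712, Zfp738 and Zfp953, and without WT replicate 2 those of Zfp458 and Zfp65, with limma adjusted p between 0.0516 and 0.253.

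The cluster at chr6:47835661-48623227 kept nearly all of its calls. Of its 9 members 8 were called higher on the deposited scale, after median-ratio scaling and without each library in turn, and 7 under all 5 scalings. The shares of all genes were 54.4%, 33.3%, 44.3% and 25.2%. Zfp777 was at 18.60 and 22.54 TPM in Tet2 KO and 12.25 and 12.29 TPM in WT (0.69), Zfp398 at 8.82 and 8.42 TPM in Tet2 KO and 4.92 and 4.81 TPM in WT (0.71), and Zfp467, described above, had the largest change but passed the filter through the Tet2 KO libraries alone. The ninth, Zfp775, was at 2.72 and 2.81 TPM in Tet2 KO and 2.40 and 2.52 TPM in WT and was not called (0.12, limma adjusted p = 0.333, and -0.056 after median-ratio scaling).

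Other clusters combined a strong rise with level neighbours. At chr17:32765496-33631779, 5 of 10 were called higher (50.0%, near the 54.4% of all genes). Zfp871 rose by 0.88, at 33.80 and 32.26 TPM in Tet2 KO and 16.82 and 18.21 TPM in WT, while Zfp414, at 30.46 and 29.92 TPM in Tet2 KO and 32.80 and 32.06 TPM in WT, was not called (-0.10, limma adjusted p = 0.134) and was called lower after median-ratio scaling (-0.34). In this cluster Zfp81 and Zfp870 lost their calls without Tet2 KO replicate 2 (0.074 and 0.0572) or WT replicate 1 (0.0799 and 0.0865). Of the 10 members at chr7:127233061-127885996, 6 were called higher. Zfp629 rose by 1.07, at 3.50 and 3.35 TPM in Tet2 KO and 1.04 and 1.18 TPM in WT, while Zfp771, at 13.70 and 11.59 TPM in Tet2 KO and 13.76 and 11.42 TPM in WT, gave 0.0069, -0.22 after median-ratio scaling and a called fall of -0.45 with length and GC corrected (limma adjusted p = 0.00704). At chr7:43296197-43618285 Zfp658 fell while its 3 neighbours Zfp715, Zfp719 and Zfp819 were called higher. Of these, Zfp819, at 1.21 and 1.38 TPM in Tet2 KO and 0.28 and 0.25 TPM in WT, had passed the filter through the Tet2 KO libraries alone, so its direction was fixed by the filter.

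No member was called in the cluster of Zfp954, Zfp418 and Zfp772 at chr7:7114690-7209998, where the TPM summed to 15.8 and 14.3 in Tet2 KO and 13.3 and 13.2 in WT. None was called in that of Zfp653, Zfp809, Zfp599 and Zfp810 at chr9:22055411-22307648 either, with sums of 20.5 and 21.7 TPM in Tet2 KO and 18.9 and 18.5 TPM in WT. In both the sums were slightly higher in both Tet2 KO libraries, and the cluster medians were 0.14 and 0.17 on the deposited scale and -0.040 and -0.035 after median-ratio scaling.

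Some members are near-copies of each other, between which reads cannot always be placed. Of the members, 43 shared at least 20% of their 50-base stretches with another gene. Of these 30 were called higher (69.8%, beside 54.4% of all genes) and none lower (beside 19.5%), with a median of 0.51. The other 245 had 175 rises (71.4%), the 6 falls (2.45%) and a median of 0.44. Zfp966 and Zfp967 had the same value in every library, 7.58 and 6.82 TPM in Tet2 KO and 3.32 and 3.36 TPM in WT, and so count as 2 calls from what may be 1 measurement. Zfp965 was at 5.87 and 15.53 TPM in Tet2 KO and 6.59 and 5.94 TPM in WT, and Zfp973, with which it shares sequence, at 11.63 and 4.50 TPM in Tet2 KO and 2.88 and 3.18 TPM in WT. Each was high in a different Tet2 KO library, and neither was called (limma adjusted p = 0.501 and 0.239). Their sum, formed after the values were seen, was 17.5 and 20.03 TPM in Tet2 KO and 9.47 and 9.12 TPM in WT, a ratio of 2.02, and was not tested. These were the only 2 of the 248 members with a mean of at least 2 TPM whose libraries of a group differed by more than 2-fold. Counted over all members, 21 overlap exons of another gene over at least 20% of their exon bases, and these may include some of the 43.

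The libraries of a group differed slightly but in a patterned way. Tet2 KO replicate 1 stood above replicate 2 in 105 of the 173 KRAB members (60.7%) and in 42 of the 113 others (37.2%), beside 39.9% of all genes. KRAB members summed to 1370 and 1298 TPM in the Tet2 KO libraries and 898 and 960 TPM in the WT libraries, and the others to 2308 and 2343 TPM in Tet2 KO and 1582 and 1621 TPM in WT. WT replicate 2 stood above replicate 1 in 201 of 288 members (69.8%), beside 59.4% of all genes. These gaps were smaller than the gap between the groups in both classes. The median absolute difference between replicates was 0.12 in Tet2 KO and 0.095 in WT on the log2 scale, against the median change of 0.45 between groups.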

How the data were processed

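Per the labels' protocols, QIAzol was used for extraction and the KAPA stranded mRNA kit for the libraries. STAR and RSEM made the values on mm10, per the submitters' processing notes. For versions, annotation release and strand setting, no source used here gives them. The values that the authors deposited are TPM with 2 decimals, 1 column per library. TPM are shares of a fixed total, so abundant transcripts and spike-ins move all other values, and they keep no depth. The 92 ERCC spike-in rows were left out of the tests.

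The comparison used limma 3.58.1 (R 4.3.3, statmod 1.5.0) on log2(TPM + 1), with trend and robust estimation, and covered the 11452 genes that reached 1 TPM in 2 or more libraries. P-values are two-sided and Benjamini-Hochberg adjusted over all of them, with a threshold of 0.05. The steps were tested on simulated data. Fold changes on this scale understate the change of low genes.

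All 288 members matched GENCODE M21 on mm10 by symbol, which gave positions, transcript lengths, coding sequences and exon overlaps. Length and GC were known for 99.0% of tested genes. Motifs were counted in translated coding sequences with Python 3.11.15, and KRAB boxes were found with pyhmmer 0.12.3 at an E-value under 0.001. Promoters came from RefSeq GRCm38.p6.

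The members and gene lists were chosen with earlier results of these data known, so member counts are descriptions, with no test of the list. Named genes were those on the lists, the 8 largest rises and falls among called members without overlap and with at least 2 TPM in the higher group, the 5 most abundant, the extremes of clusters of 4 or more, and 3 on each side of the filter. Alternatives were other pseudocounts, filters and scalings, a replicate block, and leaving out each library.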

Additional observations from a re-analysis of the deposited data

How the results depend on the processing

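TPM keep no depth, so no counting error could be given, and with 2 libraries a group 1 library can decide a call. Pseudocounts, filters, limma without trend or without robust estimation and the members present in all 4 libraries kept the count of higher members within 1.5 times the reported 205. It was 174 to 201 and the lower count 3 to 8 with 1 library left out, the 3 being without WT replicate 2, and the median 0.417 to 0.482. Lower members numbered 20 after median-ratio scaling, 25 after quantile normalization, 24 on the spike-in scale and 28 with length and GC corrected, and higher members 124, 130 and 133 after quantile normalization, on the spike-in scale and with length and GC corrected. The median was 0.530 with a pseudocount of 0.1 TPM, 0.280 with 5 TPM, 0.487 with a filter of 5 TPM, 0.246 after median-ratio scaling, 0.192 after quantile normalization, 0.202 on the spike-in scale and 0.193 with length and GC corrected. Joining neighbours within 100 or 1000 kb gave 23 and 26 clusters. The cause of each shift was not tested.

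With the replicate number as a block, 208 members were higher and 6 lower. The numbers are not known to pair the libraries: deviations from the group means correlated at -0.085 over 7941 genes.

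Of 77 named members the sign of log2 fold change reversed as follows, none of them a called rise that became a called fall after median-ratio scaling alone, while Zfp318 and Zfp445 went over to a called fall with length and GC corrected. Median-ratio scaling: Zfp114 -0.0829, Zfp143 -0.0317, Zfp281 -0.125, Zfp318 -0.0149, Zfp335 -0.211, Zfp426 -0.0724, Zfp493 -0.107, Zfp57 -0.000608, Zfp653 -0.181, Zfp703 -0.1, Zfp771 -0.221, Zfp775 -0.0559, Zfp781 -4.04e-05, Zfp809 -0.0667 and Zfp830 -0.211. Quantile normalization: Zfp114 -0.219, Zfp143 -0.0497, Zfp281 -0.173, Zfp318 -0.0663, Zfp335 -0.217, Zfp346 -0.0323, Zfp426 -0.11, Zfp493 -0.244, Zfp524 -0.0337, Zfp57 -0.076, Zfp653 -0.241, Zfp703 -0.144, Zfp771 -0.267, Zfp775 -0.145, Zfp781 -0.0867, Zfp809 -0.106 and Zfp830 -0.256. Spike-in scaling: Zfp114 -0.109, Zfp143 -0.0793, Zfp281 -0.172, Zfp318 -0.0615, Zfp335 -0.258, Zfp346 -0.0334, Zfp426 -0.118, Zfp493 -0.134, Zfp524 -0.0443, Zfp57 -0.0376, Zfp653 -0.222, Zfp703 -0.146, Zfp771 -0.268, Zfp775 -0.0919, Zfp781 -0.0282, Zfp809 -0.112, Zfp830 -0.258 and Zfp991 -0.0193. Median-ratio scaling with length and GC correction: Zfp114 -0.0907, Zfp143 -0.0363, Zfp281 -0.288, Zfp318 -0.35, Zfp335 -0.308, Zfp426 -0.0908, Zfp445 -0.153, Zfp493 -0.176, Zfp60 -0.132, Zfp638 -0.0435, Zfp644 -0.0537, Zfp653 -0.168, Zfp703 -0.116, Zfp771 -0.454, Zfp775 -0.0746, Zfp781 -0.159, Zfp830 -0.0809, Zfp930 -0.0149 and Zfp991 -0.108. With 1 library left out: Zfp493 -0.103 to 0.137, Zfp653 -0.164 to 0.216, Zfp771 -0.118 to 0.131, Zfp830 -0.0103 to 0.0425.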
